A study of Mus musculus with 8 samples.

Results

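DNA methylation in mammals is written by DNMT enzymes, carried through replication by DNMT1 with UHRF1, and removed by TET enzymes and base excision repair. The genes described are *Dnmt1*, *Dnmt3a*, *Dnmt3b*, *Dnmt3l*, *Uhrf1*, *Uhrf2*, *Tet1*, *Tet2*, *Tdg* and *Hells*, taken as a list of names, which makes 10 of the 50902 genes in the deposited table. RNA was sequenced from E14 mouse embryonic stem cells (ESCs) kept in N2B27 medium with LIF and 2i. ESC + F/H-BAZ2Ar WT (4 libraries) expressed a FLAG/HA-tagged, siRNA-resistant BAZ2A, and ESC + F/H-BAZ2Ar ΔTAM (4 libraries) expressed the same protein without TAM, its RNA-binding domain. Both lines also carried the unedited endogenous *Baz2a* gene and were treated with siRNA against it for 3 days. The comparison asks which mRNA levels differ when the remaining BAZ2A lacks TAM. Both lines came from transgene insertion by piggyBac, puromycin selection and isolation of single-cell clones, so that the deletion and differences between clones cannot be told apart. The sources do not say whether the 4 libraries of a line came from separate cultures, and p-values then measure only the spread between libraries, which may be technical.

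As background, DNMT3A and DNMT3B methylate new sites, and DNMT3L, which has no catalytic activity, binds and stimulates them. UHRF1 recognises hemimethylated CpG sites after replication and brings DNMT1 there, and HELLS is a chromatin remodeler that helps methylation reach packed DNA. TET1 and TET2 oxidise methylated cytosine, and TDG cuts out its most oxidised forms for repair. In ESCs kept in 2i, DNA methylation is known to be low, and DNA methylation itself was not analysed here.

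The RNA levels of *Dnmt3b*, *Uhrf2*, *Tet2* and *Dnmt3l* gave the 4 members with the largest called changes (below), and the 250 bases upstream of a RefSeq transcription start are shown for these to set their CpG content beside their values. Each is written 5′ to 3′ on the gene's strand from RefSeq (GRCm38.p6), with every CpG in capitals. All 10 members matched the RefSeq table, with 17 start sites between them, and only windows that hold no annotated exon are printed.
Dnmt3b (chr2:153649199-153649448, plus strand): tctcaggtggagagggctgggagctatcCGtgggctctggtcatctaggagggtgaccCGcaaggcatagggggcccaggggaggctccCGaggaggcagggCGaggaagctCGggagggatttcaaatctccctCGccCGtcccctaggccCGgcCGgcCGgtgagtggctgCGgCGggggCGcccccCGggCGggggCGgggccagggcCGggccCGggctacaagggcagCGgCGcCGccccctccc
Uhrf2 (chr19:30030263-30030512, plus strand): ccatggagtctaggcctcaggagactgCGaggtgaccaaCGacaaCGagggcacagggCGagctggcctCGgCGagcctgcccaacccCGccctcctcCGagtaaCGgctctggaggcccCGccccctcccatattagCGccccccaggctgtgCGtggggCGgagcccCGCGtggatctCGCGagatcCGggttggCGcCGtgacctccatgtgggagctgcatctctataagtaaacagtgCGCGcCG
Tet2 (chr3:133544391-133544640, minus strand): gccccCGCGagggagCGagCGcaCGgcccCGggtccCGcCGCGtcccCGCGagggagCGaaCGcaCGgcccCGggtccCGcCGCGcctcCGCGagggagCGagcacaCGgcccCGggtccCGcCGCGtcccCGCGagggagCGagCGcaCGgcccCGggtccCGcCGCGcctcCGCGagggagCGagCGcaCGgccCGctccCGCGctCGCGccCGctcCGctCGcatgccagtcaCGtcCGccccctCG
Dnmt3l, the middle of 3 starts (chr10:78049592-78049841, plus strand): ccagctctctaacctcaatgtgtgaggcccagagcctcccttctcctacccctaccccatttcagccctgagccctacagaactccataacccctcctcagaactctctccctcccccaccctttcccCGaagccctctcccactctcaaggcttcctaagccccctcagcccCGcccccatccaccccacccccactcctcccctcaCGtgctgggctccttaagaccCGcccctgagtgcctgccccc
The *Tet2* and *Dnmt3l* windows lie within the annotated span of their gene, while those of *Dnmt3b* and *Uhrf2* end where the gene begins. The *Tet2* window held 51 CpG, more than 99.93% of the 32851 windows of this length over all genes, which have a median of 6. The *Uhrf2* window held 23 and the *Dnmt3b* window 21. The *Dnmt3l* windows were the poorest in CpG apart from a *Dnmt1* start with 2 CpG, with 5, 4 and 3 at its 3 starts. CpG content did not order the members by direction, since *Tet2* and *Dnmt3l*, which both fell, had the most and nearly the fewest.

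Both strands of all 17 windows were searched for 4 motifs. Every match to the first 3 of these includes a CpG, and a match to the last, the octamer, includes none. GGGCGG, the GC box, was in 12 of the 17 windows, most often at 2 starts of *Dnmt3a* (5 and 4 times), which was not called. The windows of these 2 starts overlap in part and share a match. It was present 3 times in the *Dnmt3b* window, 3 times in that of *Uhrf2*, once in that of *Tet2* and 2 times in that of *Dnmt3l* shown but at neither of its other starts, and 32.7% of all windows hold it. CACGTG, an E-box, was in the *Dnmt3l* window shown, in the *Tdg* window and at 1 of 3 *Dnmt3a* starts, against 6.02% of all windows. TTTNGCGC, letters of an E2F site, was found at 1 of 3 *Dnmt1* starts and 1 of 2 *Uhrf1* starts, and 1.13% of all windows hold it. It was in no other window of a member, that of *Hells* included, and the *Dnmt1* window with the match holds *Dnmt1* exon. ATGCAAAT, the octamer, was in no window of a member and is in 1.60% of all windows. These matches describe the letters of the windows only.

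Levels are given in RPM, reads on a gene scaled to the library's total (the deposited RPKM multiplied by the gene's genomic span). Read counts and library totals were inferred from the smallest step of the deposited values, which gave 6.56 to 8.66 M reads on genes per library out of totals of 43.8 to 58.1 M. *Baz2a*, which counts mRNA of the transgene together with what is left of the endogenous gene, had 375, 387, 398 and 422 RPM in the WT libraries. It had 643, 700, 699 and 713 in the ΔTAM libraries. The log2 fold change was 0.80 (SE 0.0366, adjusted p = 1.2e-13 from limma), so the lines also differed in *Baz2a* mRNA, and the part of this in the results below was not tested. For the protein, the paper reports similar BAZ2A levels in both lines by Western blot. The RNA count covers the whole gene and cannot show the deletion.

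Of the 10 members, 6 passed the test, with *Dnmt3b*, *Uhrf2*, *Hells* and *Uhrf1* higher in ESC + F/H-BAZ2Ar ΔTAM and *Dnmt3l* and *Tet2* lower. The test was limma on log2(RPM + 0.1) with Benjamini-Hochberg adjustment over 12631 genes, and a gene with an adjusted p below 0.05 was called. Of the whole set, 43.7% were called, 21.7% as higher and 22.0% as lower, and 6 of 10 is read against that share and is no result about the members as a list. The study's thresholds were a log2 change of 0.58 or more in either direction and p under 0.05, taken here as unadjusted. In this fit they were passed by *Dnmt3b* and *Dnmt3l*, and by 9.58% of all genes. In 5 members, the libraries of the lines did not overlap (37.8% of all genes). The median absolute log2 fold change was 0.16 over the members and 0.18 over all genes, and the median signed change was 0.057 and -0.0040. Since these are bulk samples, fewer cells that express a gene and less RNA per cell cannot be told apart.

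**Figure D1:**
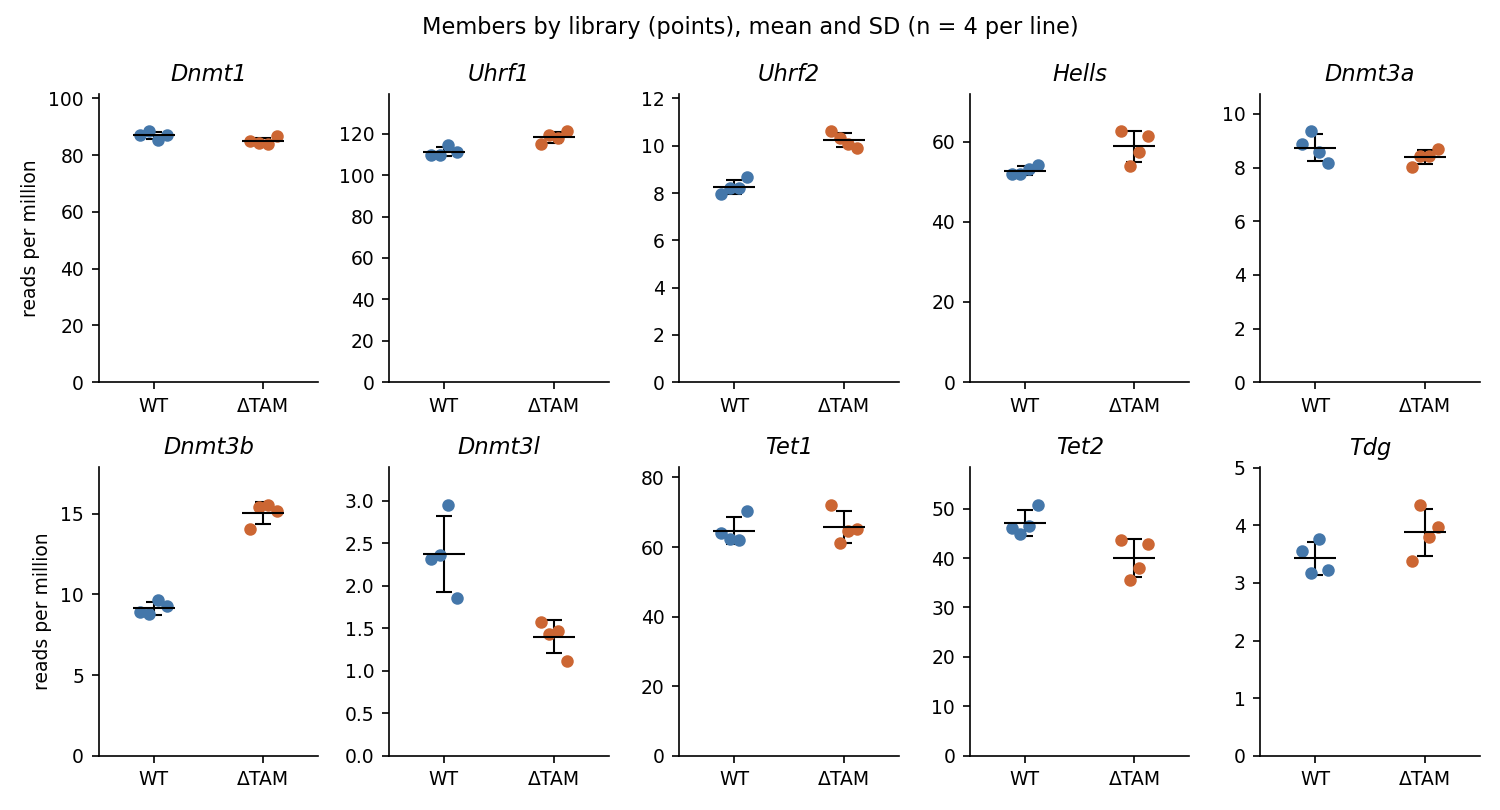
RPM (vertical axes, from 0) of each member in the 4 WT (blue) and 4 ΔTAM (orange) libraries, each point a library and the bars the mean and SD. *Dnmt3b* stands at 8.76 to 9.63 in WT and 14.1 to 15.6 in ΔTAM, while the points of *Dnmt1*, *Dnmt3a* and *Tet1* overlap between the lines.

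The de novo group held the largest changes, in opposite directions. *Dnmt3b* (chr2:153649450-153687730, plus strand, mm10) had 8.89, 8.76, 9.63 and 9.28 RPM in the WT libraries. In the ΔTAM libraries it had 14.1, 15.4, 15.6 and 15.2 RPM, so that each of these was above each WT library. The means were 9.14 ± 0.395 and 15.1 ± 0.681 (SD, n = 4 each), 1.65-fold higher, from 442 to 479 and 636 to 881 reads. The log2 fold change was 0.71 (SE 0.0514, 95% interval 0.61 to 0.82, adjusted p = 2.4e-10 from limma). On the deposited RPKM scale it was 0.54, still called but under the study's size threshold of 0.58. *Dnmt3c*, a rodent copy of *Dnmt3b* that acts in male germ cells, shares 4.47% of the distinct 100-base stretches of *Dnmt3b* transcripts and had 1 read in a single library.

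*Dnmt3l* (chr10:78041947-78063622, plus strand), the cofactor without activity, had 2.31, 2.37, 2.96 and 1.86 RPM in the WT libraries. It had 1.57, 1.44, 1.46 and 1.12 in the ΔTAM libraries, all below the lowest WT library. These values rest on the fewest reads of any member, 96 to 144 in WT and 63 to 78 in ΔTAM. The means were 2.37 ± 0.450 and 1.40 ± 0.194 (SD, n = 4 each), a ratio of 0.589. *Dnmt3l* fell by 0.72 on the log2 scale (SE 0.131, 95% interval -0.99 to -0.45, adjusted p = 1.2e-04 from limma). *Aire*, on the other strand, shares 67 exon bases with *Dnmt3l* (2.24% of its exon sequence) and had 10 to 22 reads, and whether the authors' counting used strand is not stated.

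*Dnmt3a* (chr12:3806007-3914443, plus strand), the other de novo enzyme, had 8.87, 9.36, 8.58 and 8.16 RPM in WT. Its ΔTAM libraries had 8.03, 8.45, 8.42 and 8.68, and the lines overlapped. The means were 8.74 ± 0.505 and 8.39 ± 0.269 (SD, n = 4 each), with a log2 fold change of -0.057 (SE 0.0568, 95% interval -0.17 to 0.061, adjusted p = 0.442 from limma). The interval leaves out a change of the size seen for *Dnmt3b* or *Dnmt3l*. *Dnmt3a* and *Dnmt3b* together had 17.4 to 18.2 RPM in WT and 22.1 to 24.0 in ΔTAM, and the share of *Dnmt3b* in this sum was 48.3% to 53.2% in WT and 63.6% to 64.9% in ΔTAM. This is a share of reads, not corrected for the exon length of the genes.

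Genes near each member were counted as well, where 39.3% to 47.0% of the genes tested on these chromosomes were called in either direction. Of 25 genes tested within 1 Mb of *Dnmt3b*, 9 were called higher and 4 lower, with a median log2 fold change of 0.13. Of 20 genes tested within 1 Mb of *Dnmt3l*, 1 was called higher and 9 lower, with a median of -0.15. Their chromosomes as a whole had medians of -0.016 (chromosome 2) and -0.017 (chromosome 10). Near *Uhrf2* 3 of 9 were higher and 1 lower (median 0.076), and near *Tet2* 2 of 7 were higher and 1 lower (median -0.018). Near *Uhrf1*, which rose, 7 of 47 were higher and 13 lower (median -0.095), and near *Hells*, which rose too, 1 of 7 was higher and 2 lower (median -0.19). Near *Dnmt1*, which was not called, 15 of 39 were higher and 4 lower (median 0.056), and medians near *Dnmt3a*, *Tet1* and *Tdg*, not called either, were -0.093, 0.068 and -0.098. Counts of neighbours thus did not follow the direction of the member in each case, and their part in the members' changes was not tested.

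Among the maintenance genes, *Uhrf2* rose most. *Uhrf2* (chr19:30030513-30093722, plus strand), the paralog of *Uhrf1* that does not replace it in maintenance, had 7.97, 8.21, 8.21 and 8.66 RPM in WT. The ΔTAM libraries had 10.6, 10.3, 10.1 and 9.90, all above the highest WT library. The means were 8.26 ± 0.290 and 10.2 ± 0.311 (SD, n = 4 each), 1.24-fold higher. The log2 fold change was 0.31 (SE 0.0527, 95% interval 0.20 to 0.42, adjusted p = 6.1e-05 from limma), and on the deposited RPKM scale it was 0.18 (adjusted p = 0.0042), since the same pseudocount weighs more on a gene of long span.

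*Uhrf1* (chr17:56303321-56323486, plus strand), which brings DNMT1 to hemimethylated DNA, had 109.8, 109.9, 114.4 and 110.9 RPM in WT. The ΔTAM libraries had 115.0, 119.2, 117.7 and 121.2, which did not overlap with WT. This small change, 1.06-fold, had a log2 fold change of 0.088 (SE 0.0306, 95% interval 0.025 to 0.15, adjusted p = 0.0228 from limma). The call was lost without WT library 1 (adjusted p = 0.0707), WT library 2 (0.065) or ΔTAM library 4 (0.0842). Of the distinct 100-base stretches of *Uhrf1*, 5.53% also occur in the annotated entry *Gm5648*.

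*Dnmt1* (chr9:20907209-20959888, minus strand), the maintenance methyltransferase, had 87.2, 88.4, 85.3 and 87.1 RPM in WT and 85.1, 84.3, 84.0 and 86.6 in ΔTAM. ΔTAM library 4 lay within the WT range and the other 3 just below it. The log2 fold change was -0.033 (SE 0.0304, 95% interval -0.096 to 0.030, adjusted p = 0.402 from limma). *Dnmt1* was also the steadiest member, with a coefficient of variation of 1.51% in WT and 1.36% in ΔTAM, about the 1.51% and 1.53% that counting error alone gives.

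*Hells* (chr19:38930915-38971051, plus strand), the remodeler, had 51.8, 51.9, 53.0 and 54.1 RPM in WT. The ΔTAM libraries had 62.6, 53.8, 57.4 and 61.3, of which library 2 lay within the WT range and the others above it. The means were 52.7 ± 1.10 and 58.8 ± 3.98 (SD, n = 4 each), and the log2 fold change was 0.15 (SE 0.0411, 95% interval 0.069 to 0.24, adjusted p = 0.0043 from limma). *Hells* was more spread in ΔTAM, with a coefficient of variation of 6.77% against 2.08% in WT, where counting error gives 1.84% and 1.94%. Without a mean-variance trend in limma, the call was lost (adjusted p = 0.063).

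**Figure D2:**
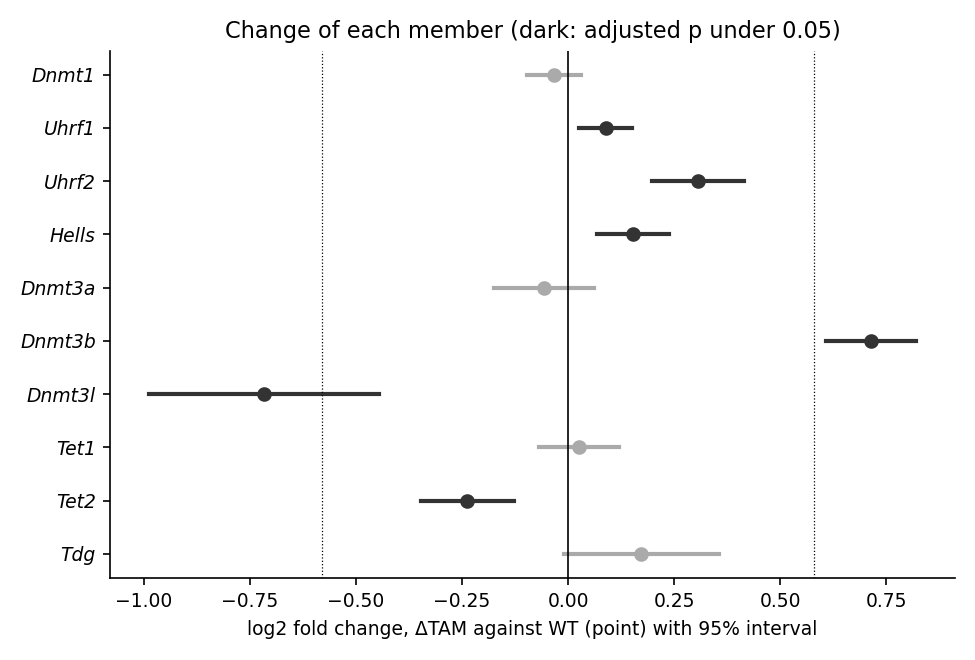
Log2 fold change of ΔTAM against WT (horizontal axis) for each member, with the point the limma estimate, the line its 95% interval, dark where the adjusted p is under 0.05, and dotted lines at -0.58 and 0.58. *Dnmt3b* at 0.71 and *Dnmt3l* at -0.72 are the members beyond the dotted lines.

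On the side of removal, *Tet2* fell and *Tet1* did not pass the test. *Tet2* (chr3:133463679-133545139, minus strand) had 46.0, 44.9, 46.5 and 50.8 RPM in WT. The ΔTAM libraries had 43.6, 35.6, 38.0 and 42.8, each below each WT library. The means were 47.1 ± 2.58 and 40.0 ± 3.84 (SD, n = 4 each), a ratio of 0.850. *Tet2* fell by 0.24 on the log2 scale (SE 0.0527, 95% interval -0.35 to -0.13, adjusted p = 8.9e-04 from limma). The coefficient of variation was 5.49% in WT and 9.60% in ΔTAM, above the 2.05% and 2.23% of counting error.

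*Tet1* (chr10:62804570-62908996, minus strand), which oxidises methylated cytosine as TET2 does, had 63.9, 62.4, 61.9 and 70.3 RPM in WT and 72.2, 61.3, 64.5 and 65.3 in ΔTAM. Both lines held a high library, WT 4 and ΔTAM 1, and the others lay close together. Its log2 fold change was 0.026 (SE 0.0454, 95% interval -0.068 to 0.12, adjusted p = 0.677 from limma). Its sign turned without ΔTAM library 1, to -0.019.

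*Tdg* (chr10:82629828-82650799, plus strand), the glycosylase that excises oxidised forms of methylated cytosine, had 3.56, 3.17, 3.76 and 3.22 RPM in WT. The ΔTAM libraries had 3.38, 4.36, 3.79 and 3.98, of which 3 lay above the highest WT library. The log2 fold change was 0.17 (SE 0.0882, 95% interval -0.011 to 0.36, adjusted p = 0.120 from limma), and without ΔTAM library 1 it was 0.23 (adjusted p = 0.0372). The value of *Tdg* is uncertain, since 27.3% of the distinct 100-base stretches of its transcripts also occur in other annotated entries, among them the pseudogene *Tdg-ps*, and how the authors treated multi-mapping reads is not stated.

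Ratios between members in the same library do not depend on how libraries are scaled. The ratio of *Dnmt3b* to *Dnmt3a* in RPM was 1.002, 0.936, 1.12 and 1.14 in the WT libraries and 1.75, 1.83, 1.85 and 1.75 in the ΔTAM libraries. The difference in mean log2 ratio was 0.78. The ratio of *Dnmt3l* to *Dnmt3a* was 0.228 to 0.345 in WT and 0.129 to 0.196 in ΔTAM, a log2 difference of -0.70. Thus the cofactor and the enzyme *Dnmt3b* both moved away from *Dnmt3a*, to opposite sides.

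The ratio of *Tet2* to *Tet1* was 0.720 to 0.752 in WT and 0.581 to 0.656 in ΔTAM, a log2 difference of -0.26. WT library 4 and ΔTAM library 1 were the highest of their line in both genes, and the ratio was tighter within a line than the level of *Tet2* alone. The ratio of *Uhrf2* to *Uhrf1* differed by 0.22 on the log2 scale and that of *Uhrf1* to *Dnmt1* by 0.12, from 1.24 to 1.34 in WT to 1.35 to 1.41 in ΔTAM. In all 5 ratios the libraries of the lines did not overlap, and each gave p = 0.0286 (two-sided exact permutation test over 70 splits, the smallest p that 4 against 4 libraries allow), also 0.0286 after Benjamini-Hochberg adjustment over the 5 ratios. Each ratio holds a member whose own libraries did not overlap, and no share over other gene pairs was computed, so the count of 5 is not read further.

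**Figure D3:**
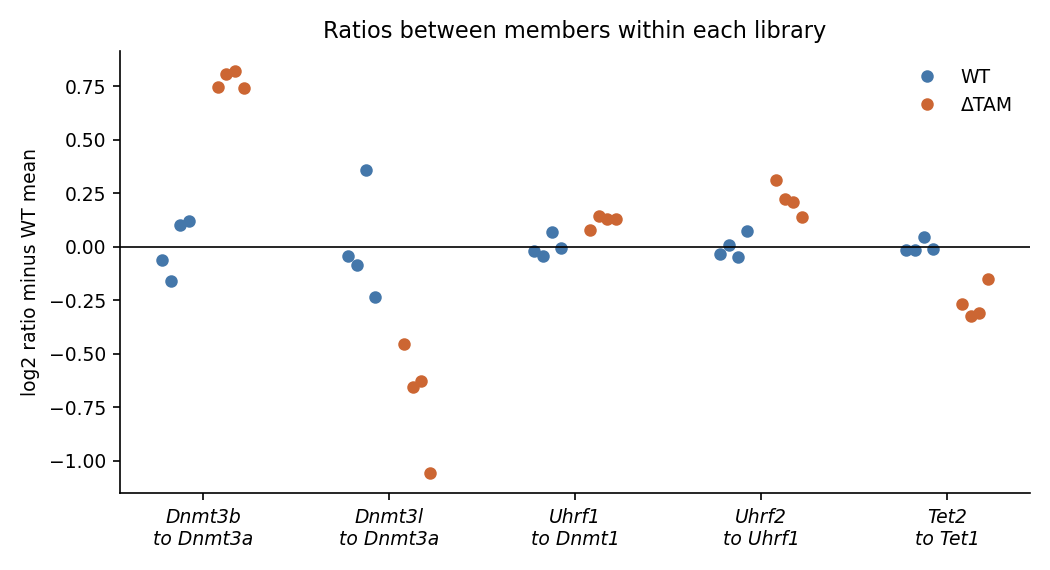
Log2 ratio of RPM between a pair of members in each library (points, WT blue, ΔTAM orange), minus the WT mean of that ratio. The ΔTAM libraries are on 1 side of the WT libraries in each of the 5 ratios, by 0.78 on average for *Dnmt3b* to *Dnmt3a* and 0.12 for *Uhrf1* to *Dnmt1*.

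To compare levels between genes, RPM were divided by the length of all annotated exons of the gene (GENCODE vM21, at the same coordinates as the deposited entries). On this scale, *Uhrf1* was the most abundant member in WT with 26.1 ± 0.501 RPM per kb of exon (SD, n = 4), followed by *Dnmt1* with 11.8 ± 0.178 and *Hells* with 7.32 ± 0.152. *Tet1* had 4.18 ± 0.251, *Tet2* 2.79 ± 0.153 and *Dnmt3b* 1.79 ± 0.0773 on the same scale. *Uhrf2* with 0.962, *Dnmt3l* with 0.795, *Tdg* with 0.637 and *Dnmt3a* with 0.525 closed the order. Neighbours in this order had ranges over libraries that did not overlap, except *Uhrf2* with *Dnmt3l* and *Dnmt3l* with *Tdg*. The maintenance genes *Uhrf1*, *Dnmt1* and *Hells* thus led the order, and the de novo enzyme *Dnmt3a* was last.

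In ΔTAM, *Dnmt3b* (2.95 ± 0.133 RPM per kb of exon, SD, n = 4) stood above *Tet2* (2.37 ± 0.228), the reverse of WT, and the ranges of this pair did not overlap in either line. *Dnmt3l*, at 0.468 ± 0.0651, moved from the 8th to the 10th place, where its range overlapped with that of *Dnmt3a* (0.504 ± 0.0161). The first 4 places were held by the same genes in both lines. The exon length counts every annotated isoform, so it sets low the level of a gene with long alternative exons, such as *Tet2* with 16.9 kb or *Dnmt3a* with 16.6 kb, beside 5.11 kb for *Dnmt3b*. The order of *Dnmt3b* and *Tet2* therefore rests on this choice of length, while the change of their ratio between the lines does not. The last place of *Dnmt3a* in WT rests on it too, since in RPM *Dnmt3a* was above *Uhrf2*, *Tdg* and *Dnmt3l*.

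**Figure D4:**
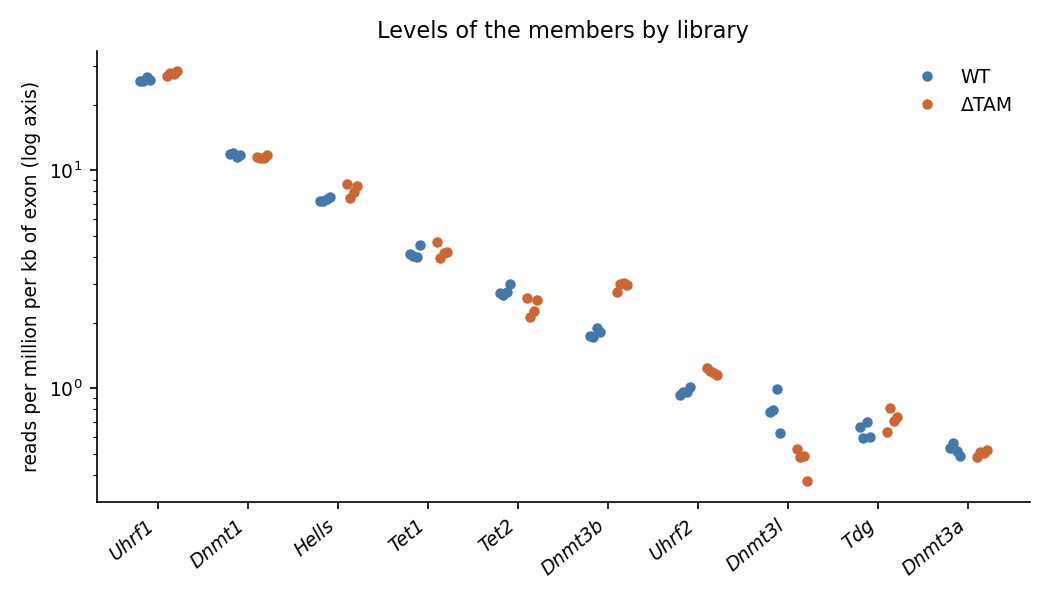
RPM per kb of annotated exon (vertical log axis) of each member in the WT (blue) and ΔTAM (orange) libraries, each point a library, ordered by the WT mean. Levels run from 26.1 for *Uhrf1* to 0.525 for *Dnmt3a* in WT, and *Dnmt3b* and *Tet2* change places between the lines.

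Other genes of these pathways were taken from 8 lists with 94 genes, of which 85 were tested, 31 were called higher and 15 lower (54.1% in all, beside 43.7% of all genes), with a median log2 fold change of 0.051. Of the other writers and demethylases, 1 of 4 tested was called. *Tet3*, the third TET enzyme, had 2.68 ± 0.238 RPM in WT and 2.02 ± 0.339 in ΔTAM (SD, n = 4 each), which is a log2 difference of -0.40 (adjusted p = 0.0060 from limma). *Mbd4*, a glycosylase at deaminated CpG, *Smug1*, another DNA glycosylase, and *Trdmt1*, a tRNA methyltransferase of the DNMT family, were not called, at 0.16, 0.023 and -0.015.

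Of the cofactors and partners of maintenance methylation, 5 of 10 tested rose and 1 fell. *Dppa3*, whose product keeps UHRF1 off chromatin, had the largest change of all these genes, from 1.23 ± 0.131 to 5.22 ± 0.439 RPM (SD, n = 4 each), which is a log2 difference of 2.00 (adjusted p = 5.0e-13 from limma). *Usp7*, a deubiquitinase that binds DNMT1 and UHRF1, rose by 0.21 (adjusted p = 4.8e-06 from limma). *Trim28*, the corepressor that protects methylation at imprinted regions, rose by 0.19 (adjusted p = 2.1e-04 from limma).

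Of the TET partners and CXXC proteins, 3 of 10 tested rose and 1 fell. *Idh2*, which makes the TET cosubstrate alpha-ketoglutarate in mitochondria, had a log2 fold change of -0.39 (adjusted p = 1.3e-08 from limma). *Kdm2b*, which binds unmethylated CpG islands, rose by 0.37 (adjusted p = 2.5e-05), and *Sall4*, a stem cell transcription factor reported to bind oxidised methylcytosine, by 0.35 (adjusted p = 3.5e-07), both from limma. Of the base excision repair genes, 3 of 12 tested rose and 4 fell, with a median of -0.12. *Neil2*, a glycosylase that can follow TDG, was at -0.56 (adjusted p = 4.1e-05). *Apex1*, the endonuclease that cuts at abasic sites, rose by 0.45 (adjusted p = 5.0e-05), and *Ung*, which removes uracil, by 0.32 (adjusted p = 1.7e-05), all from limma. Below the mean of 2 RPM used for naming, and given after their values were seen, were *Gadd45a* and *Neil3*. They were at -0.71 (adjusted p = 5.2e-04) and -0.46 (adjusted p = 0.0031), both from limma.

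Of the methyl-CpG readers, 3 of 9 tested rose and none fell. These were *Mbd2*, a part of the NuRD corepressor, at 0.44 (adjusted p = 4.8e-04), *Zbtb38* at 0.39 (adjusted p = 3.6e-05) and *Zbtb33* at 0.35 (adjusted p = 0.0022), the last 2 being zinc finger proteins that bind methylated DNA (limma). Of the genes of methyl donor metabolism, 3 of 7 rose and 2 fell. *Mat2a*, which makes the methyl donor S-adenosylmethionine, rose from 35.7 ± 1.08 to 53.3 ± 3.25 RPM (SD, n = 4 each), which is a log2 difference of 0.58 (adjusted p = 2.0e-10 from limma). *Mtr*, methionine synthase, rose by 0.28 (adjusted p = 6.7e-06 from limma). *Ahcyl1*, a relative of the enzyme that clears the donor's by-product, was at -0.23 (adjusted p = 3.3e-04 from limma).

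Germline genes whose promoters are methylated in somatic cells are often used as a readout of this pathway. Of 17 listed, 12 were tested, 3 rose and 2 fell, and the median log2 fold change was -0.0042. *Dazl*, an RNA-binding protein of germ cells, rose from 11.7 ± 0.882 to 19.2 ± 0.522 RPM (SD, n = 4 each), which is a log2 difference of 0.71 (adjusted p = 2.7e-10 from limma). *Rpl10l*, a testis ribosomal protein, rose by 0.40 (adjusted p = 4.4e-06 from limma), and as an intronless copy of *Rpl10* it may take reads from it. Below the abundance used for naming were the other called genes, given here after their values were seen. These were *Sycp3* at -0.80 (adjusted p = 5.0e-04), a protein of the meiotic chromosome axis, *Dpep3* at -0.62 (adjusted p = 0.0079), a testis dipeptidase, and *Brdt* at 0.67 (adjusted p = 0.011), a testis bromodomain protein (limma). The summed level of the list was 47.8 to 51.5 RPM in WT and 63.3 to 64.8 in ΔTAM, most of it from *Dazl* and *Rpl10l*. *Sycp2*, *Asz1*, *Tdrd1*, *Slc25a31* and *Tex101* were too low to be tested.

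Because *Dnmt1*, *Uhrf1* and *Hells* are expressed with the cell cycle, genes of S phase were counted beside them. Of 22 tested, 11 rose and 4 fell, with a median log2 fold change of 0.13. *Tyms*, which makes thymidylate, was at 0.43 (adjusted p = 8.2e-08), *Cdc6*, which loads the replicative helicase, at 0.40 (adjusted p = 2.1e-06) and *Ccne1*, cyclin E1, at 0.35 (adjusted p = 1.4e-06), all from limma. The summed level of the list was 744 to 787 RPM in WT and 796 to 849 in ΔTAM. *Uhrf1* and *Hells* moved to the same side as this list and *Dnmt1* did not, and the part of the cell cycle in their values was not tested.

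**Figure D5:**
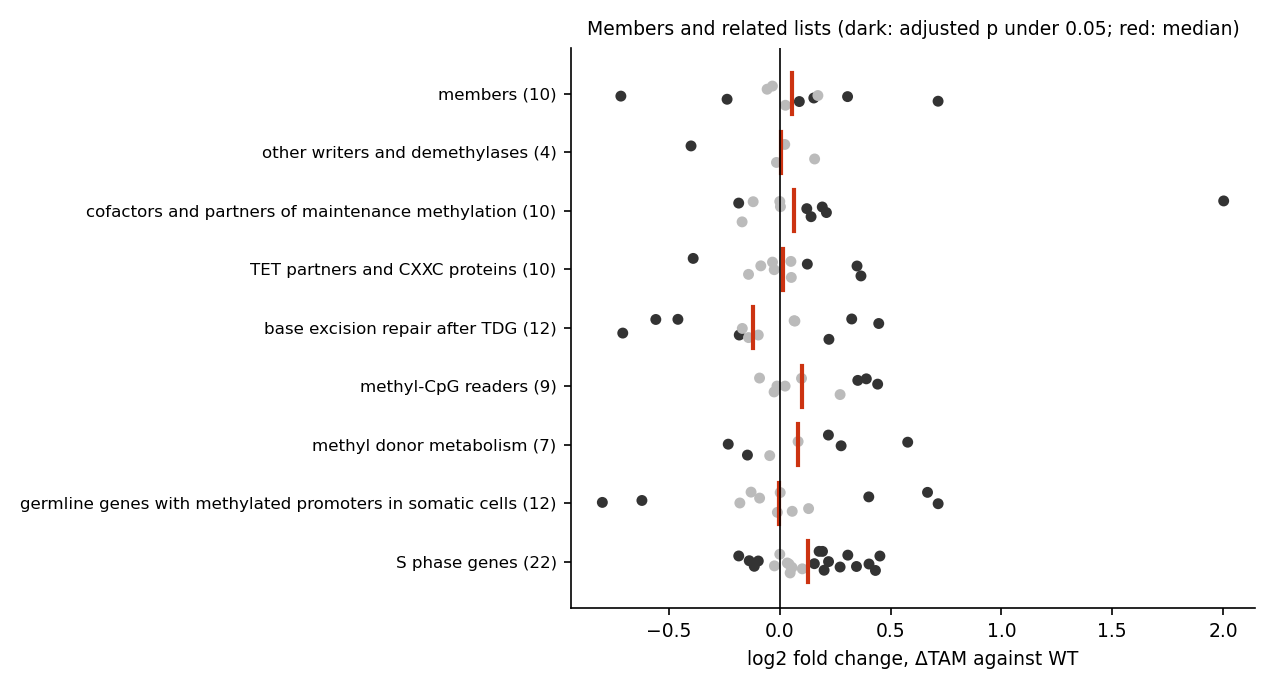
Log2 fold change of ΔTAM against WT (horizontal axis) for the members and for the tested genes of the 8 lists (number in brackets), each point a gene, dark where the adjusted p is under 0.05, with the median in red. *Dppa3* stands alone at 2.00, and the medians run from -0.12 for base excision repair to 0.13 for S phase.

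The label of ESCs was checked against markers. The 6 ESC markers (*Pou5f1*, *Nanog*, *Sox2*, *Zfp42*, *Esrrb* and *Tfcp2l1*) were high in every library, summing to 713 to 721 RPM in WT and 653 to 689 in ΔTAM, and 2 of them fell, *Sox2* at -0.42 (adjusted p = 2.6e-09) and *Esrrb* at -0.23 (adjusted p = 5.6e-06, both from limma). *Dnmt3b* and *Dnmt3l* are also known to rise when ESCs leave the naive state. The markers of primed epiblast summed to 5.69 to 6.21 RPM in WT and 4.34 to 5.61 in ΔTAM, nearly all of it from *T*, with *Fgf5* at 0 in every library (none of 1 tested was called). Each ΔTAM library was below each WT library in *T* (log2 fold change -0.18, adjusted p = 0.0685 from limma). *Otx2* had 6 to 11 reads in WT and 1 to 3 in ΔTAM, too few to be tested, and *Pou3f1* overlapped between the lines. These markers rest on few reads apart from *T*, and the part of the naive or primed state in the values of *Dnmt3b* and *Dnmt3l* was not tested.

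Markers of 2-cell-like cells, a rare state in ESC cultures that resembles the early embryo, moved with the comparison. All 6 rose (*Zscan4c*, *Zscan4d*, *Zscan4f*, *Tcstv1*, *Tcstv3* and *Usp17lc*), summing to 0.764 to 1.43 RPM in WT and 5.91 to 6.47 in ΔTAM, with a median log2 fold change of 1.95. Several of these are close copies of other genes, and their counts are uncertain for that reason. Markers of primitive endoderm summed to 0.911 to 1.13 RPM in WT and 1.31 to 1.57 in ΔTAM, with 1 of 6 tested and not called. Of the trophoblast markers, 2 of 3 tested rose and 1 fell, and the list summed to 11.3 to 11.5 and 11.7 to 13.9. Fibroblast markers were near 0, at 0.136 to 0.267 and 0.189 to 0.375 RPM in sum, with *Col3a1* and *Twist2* at 0. The part of these cell states in the members' changes was not tested.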

How the data were processed

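PolyA-enriched RNA was sequenced, and per the methods and the submitters' notes the authors removed ribosomal reads, trimmed with Trimmomatic, mapped with STAR to mm10 and deposited exon coverage per gene as RPKM for each library. The annotation release, strand use and the handling of multi-mapping reads are not given in the sources used here. The deposited RPKM are per kb of genomic span. Multiplied by the span they are RPM, reads scaled to the library total, and come in whole multiples of 1 read in at least 99.5% of values above 0 (tolerance 0.05 of a read). Repeated symbols kept a single entry each (386 entries set aside), except 2 symbols whose entries were kept apart.

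Limma 3.58.1 (R 4.3.3, lmFit and eBayes with trend, no covariate) was fitted to log2(RPM + 0.1) for 12631 genes that averaged 0.2 RPM or more. The fitting procedure was also run on simulated reads with known changes and the same dispersion for every gene. Genes in these data differed in spread, so no conclusion is drawn from that run. A fold change on this scale understates changes of low genes. Voom on the recovered reads called 5569 of 12657 genes. Intervals are at 95%. All members were named, and in each list the 3 called genes with the largest change among those with a mean of at least 2 RPM, besides all other writers and demethylases. The members and lists were chosen with earlier results of these data known. Alternatives were other pseudocounts, filters, scalings, eBayes settings, a replicate block and each library left out. Markers are named as checks of the cells. Python 3.11.15 was used for exon lengths, windows and ratios.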

Additional observations from a re-analysis of the deposited data

Results flagged for a closer look

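Single libraries were checked in 82 groups of 4 libraries (the members, *Baz2a*, the named genes of the lists and the ratios), and 5 stood apart by Dixon's criterion (the gap to the nearest library over the range, above its 95% critical value), where chance gives about 1 in 20. *Dnmt3c* had 0.0172 RPM, a single read, in ΔTAM library 4 and 0 in the others of that line. *Kdm2b* had 8.57 RPM in WT library 4, where the other WT libraries had 10.00 to 10.2. *Apex1* had 4.84 in ΔTAM library 1 and 5.59 to 5.73 in the others. *Zbtb33* had 3.32 in ΔTAM library 3 and 3.88 to 3.98 in the others. The ratio of *Tet2* to *Tet1* was 0.752 in WT library 3 and 0.720 to 0.723 in the other WT libraries. Apart from this ratio, no member's own level stood apart in this way.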

How the results depend on the processing

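*Dnmt3b*, *Dnmt3l*, *Uhrf2* and *Tet2* kept their direction and their call in every setting that gave them a value, and *Dnmt1* and *Dnmt3a* were called in none. *Uhrf1* had a log2 fold change of 0.088 with no filter on low genes (adjusted p = 0.0699) and with no trend (adjusted p = 0.116), not called in either, and 0.077 to 0.10 with a library left out. *Hells* was at 0.15 with no trend (adjusted p = 0.063). With no trend, 2 members were called higher in place of 4. On the RPKM scale *Dnmt3a* and *Dnmt3l* fell under the filter, and 1 member was called lower in place of 2. With a library left out, *Tet1* was at -0.019 to 0.067 and *Tdg* at 0.12 to 0.23. Over all settings 4 to 7 members were called. In the limma fits used here, the study's thresholds were passed by 1210 genes, and by 341 of 9000 on the RPKM scale. They were passed by 609 with a pseudocount of 0.5, 601 with a mean of at least 1 RPM and 1453 with a pseudocount of 0.02. Voom gave 1501, and no filter 1665 of 25439. These counts are not the study's own. On the RPKM scale 3225 genes were called, beside 5517. The ratios kept their direction with each library left out. Depth limits *Dnmt3l* and *Tdg* most, where counting error alone gives a coefficient of variation of 9.16% and 12.02% (*Dnmt3l*) and 7.62% and 7.18% (*Tdg*) in WT and ΔTAM.

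Replicate numbers were not taken to pair the samples, and whether they do is not settled here. Deviations of same-numbered libraries correlated weakly, at 0.040, 0.12, 0.076 and 0.15 over 9958 genes. WT 4 correlated more with ΔTAM 1 (0.20). With a replicate block, 6 members were called as without it, 47 list genes in place of 46, and 5858 genes in place of 5517. Paired ratios gave p = 0.125 in an exact sign-flip test, the smallest that 4 pairs allow.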
